A study of Mus musculus with 6 samples.

Results

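Expression of 7 Schwann cell and nerve genes (Scn7a, Sox10, S100b, Mbp, Ngfr, Cdh19 and Pmp22), out of 37991 genes listed, was compared between mouse tumours without and with Kindlin-1. The genes were taken by symbol, and all 7 matched an Ensembl identifier. They were selected on the read counts of these same libraries and on the fold change between the groups, in which Scn7a was already known to be low in Null tumours, so fold changes and p-values of the 7 are given as a description. All tumours came from cutaneous squamous cell carcinoma, which arises from skin keratinocytes, and total RNA of the tumours was sequenced. There were 3 Kindlin-1 Null libraries, of tumours with a Kindlin-1 knockout, and 3 Kindlin-1 WT libraries, of tumours that express it. The labels give the carcinoma as the cell line of both groups, and give no host strain, age, number of clones or other allele.

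Schwann cells are the glia of peripheral nerves. Those that ensheath thick axons build myelin, the insulating membrane wrap, and others enclose bundles of thin axons. The transcription factor SOX10 is needed for the lineage and, together with EGR2, switches on myelin genes such as Pmp22 and Mbp. The skin holds many nerve endings with their Schwann cells, and Schwann cells that lose contact with axons return to an immature state marked by the neurotrophin receptor NGFR.

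Reads assigned to genes ranged from 1138318 to 31487255 in the Null libraries and from 161711 to 15529242 in the WT libraries. Values are CPM, read counts divided by the library total and put on a common scale with the TMM factors of edgeR. WT library 2 was the shallowest, and 3 reads there correspond to 18.4 CPM, against 0.0951 to 2.76 CPM in the other libraries, so 1 read in WT library 2 weighs 6.14 CPM. The titles give Null libraries 2 and 3 a shared mouse number, and WT libraries 1 and 2 share another, although the file of Null library 3 is named with another number. The labels do not say whether these are separate animals. P-values therefore measure only the spread between these libraries, which may be partly technical. Fermt1, the gene of Kindlin-1, had 0, 2 and 2 reads in Null libraries 1 to 3, against 16, 2 and 1040 reads in WT libraries 1 to 3. The keratinocyte marker Krt5 had 7 reads over the Null libraries and 10 reads over the WT libraries, although the tumours are labelled as a keratinocyte carcinoma, while Krt14 was read in every library.

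The sequence just before the start site is shown for the 2 genes with the lowest Null level relative to WT among those with at least 20 reads, Scn7a and S100b. Both are RefSeq windows on build GRCm38.p6, cover the 250 bases before the start, and are written 5′ to 3′ on the gene's strand. The window of Scn7a is chr2:66784911-66785160, minus strand, and that of S100b is chr10:76253586-76253835, plus strand. Capitals mark matches to the motifs searched on both strands.
Scn7a: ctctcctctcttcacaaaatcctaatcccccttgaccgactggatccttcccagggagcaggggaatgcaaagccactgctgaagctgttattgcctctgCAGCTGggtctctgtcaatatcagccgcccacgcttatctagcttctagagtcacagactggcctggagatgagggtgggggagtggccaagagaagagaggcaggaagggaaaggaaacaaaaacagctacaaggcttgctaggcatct
S100b: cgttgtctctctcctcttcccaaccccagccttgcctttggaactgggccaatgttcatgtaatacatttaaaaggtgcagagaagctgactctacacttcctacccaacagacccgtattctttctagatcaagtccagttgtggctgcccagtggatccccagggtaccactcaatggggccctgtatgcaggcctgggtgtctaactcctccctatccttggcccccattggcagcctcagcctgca
The motifs were the SOX core in its forms ACAAAG and ACAATG, the E-box CAGCTG bound by myogenic factors and the TATA box TATAAA. The Scn7a window holds CAGCTG, starting 150 bases before the start site, a motif present in 13% of 32851 windows of the same length. A window of Ngfr, not shown, also holds CAGCTG, starting 25 bases before the start site. None of the 4 motifs is in the S100b window, where ACAAAG is in 16.5% of all windows and ACAATG in 10.7%. Windows were found for 4 of the 7 genes. A match is a description of letters, not of binding.

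Of the 7 genes 1 passed the test. Scn7a (ENSMUSG00000034810) fell in the Null tumours, while Mbp and Pmp22 did not pass, and Sox10, S100b, Ngfr and Cdh19 had too few reads for the test. Sox10 and Cdh19, which mark the Schwann cell lineage, were at or near 0 in both groups. S100b and Ngfr, which other cells can also make, had reads in both groups. The name of the set describes the list, and whether Schwann cells were present was not tested. Over all 11887 genes tested, 5.79% passed the quasi-likelihood test of edgeR at a Benjamini-Hochberg adjusted p of 0.05, with 3.52% lower and 2.26% higher in Null tumours. Of the 3 genes of the set that were tested 1 passed as lower and 0 as higher, with a median log2 fold change of 0.20, against 0.01 over all genes tested. In bulk tumours, fewer cells of a type and less RNA per cell cannot be told apart.

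**Figure D1:**
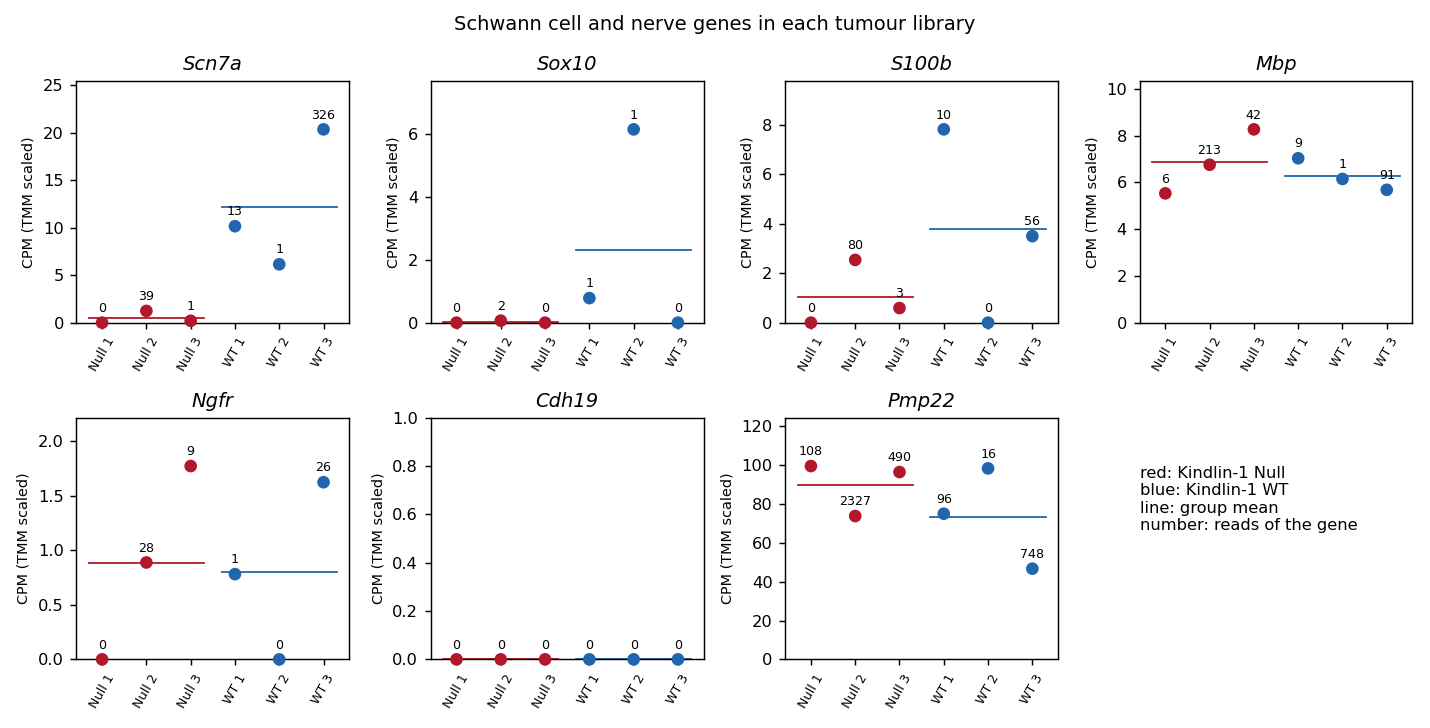
TMM-scaled CPM of each gene (y axis, each panel with its own scale from 0) in the 3 Null libraries (red) and the 3 WT libraries (blue), with the group mean as a line and the number of reads above each point. Scn7a lies at 0 to 1.24 CPM in Null libraries and at 6.14 to 20.3 CPM in WT libraries, while the points of the other genes with reads overlap between groups.

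Scn7a encodes Nax, a member of the voltage-gated sodium channel family that responds to the sodium level outside the cell rather than to voltage, and that is found in Schwann cells as well as in other tissues such as heart and uterus. It had 0, 39 and 1 reads in Null libraries 1 to 3, against 13, 1 and 326 reads in WT libraries 1 to 3. Scaled, these were 0, 1.24 and 0.197 CPM in the Null libraries, against 10.2, 6.14 and 20.3 CPM in the WT libraries. Every Null value lay below every WT value. Of the 7 genes 1 showed this, against 14.3% of all genes tested, while 16.2% had every Null value above and 30.5% did not overlap in either direction. The mean was 0.478 ± 0.664 CPM in Null tumours and 12.2 ± 7.32 CPM in WT tumours (SD, n = 3 each), a log2 difference of -4.12 (SE 0.62, edgeR adjusted p = 0.00289). Over the pooled reads of each group the level was 1.06 CPM in Null tumours (95% exact Poisson interval 0.758 to 1.44) and 19.5 CPM in WT tumours (17.5 to 21.6).

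The size of the Scn7a difference rested on single libraries more than its direction did. WT library 3 held 326 of the 340 WT reads, and Null library 2 held 39 of the 40 Null reads. Without WT library 3 the gene did not pass the expression filter. With no filter and without that library, a fit added after the data were seen, the log2 fold change was -3.51 (edgeR adjusted p = 0.0112). The pooled ratio of WT to Null was then 9.15 (95% exact Poisson interval 4.6 to 17.2), against 18.4 (13.2 to 26.2) with all libraries. Leaving out Null library 2 gave -6.35 on the log2 scale (edgeR adjusted p = 0.0015), with 1 Null read left and a pooled ratio of 120 (21.4 to 4756).

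The lineage genes came next in role, and were all but missing. Sox10 (ENSMUSG00000033006), the transcription factor on which the Schwann cell lineage depends, had 0, 2 and 0 reads in Null libraries 1 to 3 and 1, 1 and 0 reads in WT libraries 1 to 3. Its 4 reads came to 0.053 CPM over the pooled Null libraries (95% exact Poisson interval 0.00642 to 0.192) and 0.115 CPM over the pooled WT libraries (0.0139 to 0.414). Both groups were at or under 3 reads, so no fold change is given. WT library 3, with the highest Scn7a level, had 0 Sox10 reads. The myelination factor Egr2 was highest in that library, at 8.3 CPM, while S100b was highest in WT library 1, at 7.81 CPM. Whether Scn7a reads come from Schwann cells was not tested. Cdh19 (ENSMUSG00000047216), a cadherin of Schwann cell precursors, had 0 reads in all 6 libraries, which allows a level of up to 0.0795 CPM in the pooled Null libraries and 0.172 CPM in the pooled WT libraries, taken as 3 reads over the group. Such floors and intervals cover counting error only.

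S100b (ENSMUSG00000033208), a small calcium-binding protein used as a marker of Schwann cells and also made by adipocytes, had 0, 80 and 3 reads in Null libraries 1 to 3 and 10, 0 and 56 reads in WT libraries 1 to 3. Scaled, these were 0, 2.54 and 0.59 CPM in the Null libraries, against 7.81, 0 and 3.49 CPM in the WT libraries. The groups overlapped, because WT library 2 had no read, at a depth where 3 reads are 18.4 CPM. The mean was 1.04 ± 1.33 CPM in Null tumours and 3.77 ± 3.91 CPM in WT tumours (SD, n = 3 each). S100b did not pass the expression filter, and in the fit without a filter its log2 fold change was -1.63 (edgeR adjusted p = 0.23). The pooled ratio of WT to Null was 1.72 (95% exact Poisson interval 1.22 to 2.4), and it was 7.77 (2.55 to 38.6) without Null library 2, which held 80 of the 83 Null reads, and 3.15 (1.46 to 6.08) without WT library 3.

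Ngfr (ENSMUSG00000000120), the low-affinity neurotrophin receptor p75 of immature and repair Schwann cells, which fibroblasts and perivascular cells can also carry, had 0, 28 and 9 reads in Null libraries 1 to 3 and 1, 0 and 26 reads in WT libraries 1 to 3. The values were 0, 0.887 and 1.77 CPM in the Null libraries, against 0.781, 0 and 1.62 CPM in the WT libraries. They overlapped over most of their range. The mean was 0.886 ± 0.885 CPM in Null tumours and 0.801 ± 0.812 CPM in WT tumours (SD, n = 3 each). The gene was not tested, and without a filter its log2 fold change was -0.32 (edgeR adjusted p = 0.87), or 0.69 without WT library 3 (edgeR adjusted p = 0.883).

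The myelin genes of the set were read in every library. Mbp (ENSMUSG00000041607), which encodes myelin basic protein and, from an upstream promoter, golli proteins that are also made outside myelin, had 6, 213 and 42 reads in Null libraries 1 to 3 and 9, 1 and 91 reads in WT libraries 1 to 3. The values were 5.53, 6.75 and 8.26 CPM in the Null libraries, against 7.03, 6.14 and 5.68 CPM in the WT libraries. Null libraries held both the lowest and the highest value. The mean was 6.85 ± 1.37 CPM in Null tumours and 6.28 ± 0.685 CPM in WT tumours (SD, n = 3 each), a log2 difference of 0.20 (SE 0.42, edgeR adjusted p = 0.8). Counts per gene do not separate the myelin and golli forms.

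Pmp22 (ENSMUSG00000018217), a tetraspan membrane protein of compact myelin that epithelial cells and fibroblasts also make, had the highest CPM of the set. It stood at 99.5, 73.8 and 96.4 CPM in Null libraries 1 to 3, against 75, 98.3 and 46.7 CPM in WT libraries 1 to 3. The groups overlapped, and WT library 3 was the lowest of the 6. The mean was 89.9 ± 14.1 CPM in Null tumours and 73.3 ± 25.8 CPM in WT tumours (SD, n = 3 each), a log2 difference of 0.43 (SE 0.29, edgeR adjusted p = 0.373). It was 0.11 without WT library 3.

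Levels of different genes were compared per kilobase of annotated exon. Pmp22 led in both groups, with 38.2 ± 5.97 CPM per kb in Null tumours and 31.1 ± 11 CPM per kb in WT tumours (SD, n = 3 each). In Null tumours the order below it was Mbp (0.808 ± 0.162 CPM per kb), S100b (0.702 ± 0.894), Ngfr (0.257 ± 0.257), Scn7a (0.0651 ± 0.0905), Sox10 (0.00693 ± 0.012) and Cdh19 at 0. Below Pmp22 each gene lay within the larger SD of the pair from the next. In WT tumours it was S100b (2.54 ± 2.64 CPM per kb), Scn7a (1.66 ± 0.998), Sox10 (0.757 ± 1.1), Mbp (0.742 ± 0.0809), Ngfr (0.232 ± 0.235) and Cdh19 at 0. The WT place of Sox10 came from 1 read in WT library 2. Among the WT genes below Pmp22, S100b, Scn7a and Sox10 did not differ from their neighbours beyond the SD. Mbp and Ngfr were farther apart than their SDs. Scn7a stood below Mbp per kb in every Null library and above it in every WT library, on 1 read of each gene in WT library 2.

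Other genes of nerve were read from lists drawn up for peripheral nerve. Of 20 further myelin and myelinating Schwann cell genes, 5 were tested, 1 fell, 1 rose and 15 were not tested. Cd9, a tetraspanin of myelin that many other cells carry, rose 3.35-fold, with 911 ± 426 CPM in Null tumours and 277 ± 81.7 CPM in WT tumours (SD, n = 3 each; edgeR adjusted p = 0.019). It no longer passed without Null library 1 (edgeR adjusted p = 0.0806). Cnp, a myelin phosphodiesterase found in many cells, had the highest CPM of the tested genes that did not pass, at 38.8 ± 17.1 CPM in Null tumours and 39.7 ± 3.16 CPM in WT tumours. Egr2, the transcription factor of myelination, had 95 reads over the Null libraries and 136 over the WT libraries, of which 133 lay in WT library 3. Pou3f1, a transcription factor that acts before Egr2 in myelination, had 0 reads in all 6 libraries.

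Of 20 genes of immature, non-myelinating and repair Schwann cells, 6 were tested, and 0 rose or fell. Ncam1, a neural adhesion molecule also found in regenerating muscle, had the smallest adjusted p, at 100.3 ± 7.09 CPM in Null tumours and 162 ± 24.8 CPM in WT tumours (SD, n = 3 each; log2 fold change -0.72, edgeR adjusted p = 0.0856). Cnn3, an actin-binding calponin, had the highest CPM, at 745 ± 25.5 CPM in Null tumours and 768 ± 111 CPM in WT tumours. Foxd3, Olig1 and Shh had no read in any library.

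Of 21 ligands and receptors of the neuregulin, neurotrophin and GDNF families, which carry signals between axons, Schwann cells and target tissue, 11 were tested, and 0 rose or fell. Erbb2, a co-receptor for neuregulin on Schwann cells and on epithelium, had the highest mean CPM over the 6 libraries. It stood at 56.2 ± 11.8 CPM in Null tumours, where Gfra2 was higher (62.7 ± 22.1), and at 86.7 ± 10.2 CPM in WT tumours (SD, n = 3 each; edgeR adjusted p = 0.187). Ntrk2, the receptor of BDNF, had the smallest adjusted p, with 1.15 ± 1.01 CPM in Null tumours and 6.2 ± 0.764 CPM in WT tumours (log2 fold change -2.04, SE 0.58, edgeR adjusted p = 0.0566). Ncam1 and Ntrk2 were picked out after their values were seen.

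Of 20 axon and sensory neuron genes, 1 was tested and fell, and 14 had fewer than 20 reads over the 6 libraries. Cntnap1, the axonal adhesion protein Caspr that faces the myelin edge, stood at 0.921, 6.28 and 6.1 CPM in Null libraries 1 to 3, against 20.3, 18.4 and 20.5 CPM in WT libraries 1 to 3. The groups did not overlap (log2 fold change -1.93, SE 0.43, edgeR adjusted p = 0.0246). The call was lost without Null library 3 (edgeR adjusted p = 0.0609) or WT library 3 (0.0992). The neurofilament Nefl had 3 reads over the Null libraries and 7 over the WT libraries. Cell bodies of sensory neurons lie in ganglia outside the skin.

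Of 12 perineurial and endoneurial genes, which mark the sheath and the fibroblasts of a nerve, 6 were tested, 1 rose and 1 fell. Sox9, a transcription factor of endoneurial fibroblasts and of hair follicle and cartilage cells, stood at 14.7, 8.68 and 6.69 CPM in Null libraries 1 to 3, against 32.8, 24.6 and 28 CPM in WT libraries 1 to 3. Its log2 fold change was -1.67 (SE 0.36, edgeR adjusted p = 0.019). The call was lost without Null library 2 (edgeR adjusted p = 0.0611) or 3 (0.102) and with each pair that shares a mouse number summed (0.0636). Etv1, an ETS transcription factor, rose to 51.9 ± 16.6 CPM in Null tumours, against 16.3 ± 8.91 CPM in WT tumours (SD, n = 3 each; log2 fold change 1.35, edgeR adjusted p = 0.0344), a call lost without any 1 of Null libraries 1 and 3 and WT libraries 2 and 3 (highest edgeR adjusted p = 0.128) and with the WT pair summed (0.0519). With mouse number as a random effect in limma-voom, Etv1 also did not pass (limma-voom adjusted p = 0.0531). Spp1, osteopontin, had the highest CPM of those that did not pass, at 736 ± 309 CPM in Null tumours and 417 ± 53.6 CPM in WT tumours (edgeR adjusted p = 0.14). Summed over each list, myelin genes stood at 658 to 1426 CPM in Null libraries and 286 to 424 CPM in WT libraries, mostly Cd9. Immature and repair Schwann cell genes summed to 988 to 1016 CPM against 1019 to 1177 CPM, mostly Cnn3. Axon genes summed to 6.45 to 14.2 CPM against 24.6 to 32 CPM, in WT libraries mostly Cntnap1. The ligand and receptor sums and the perineurial and endoneurial sums overlapped.

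**Figure D2:**
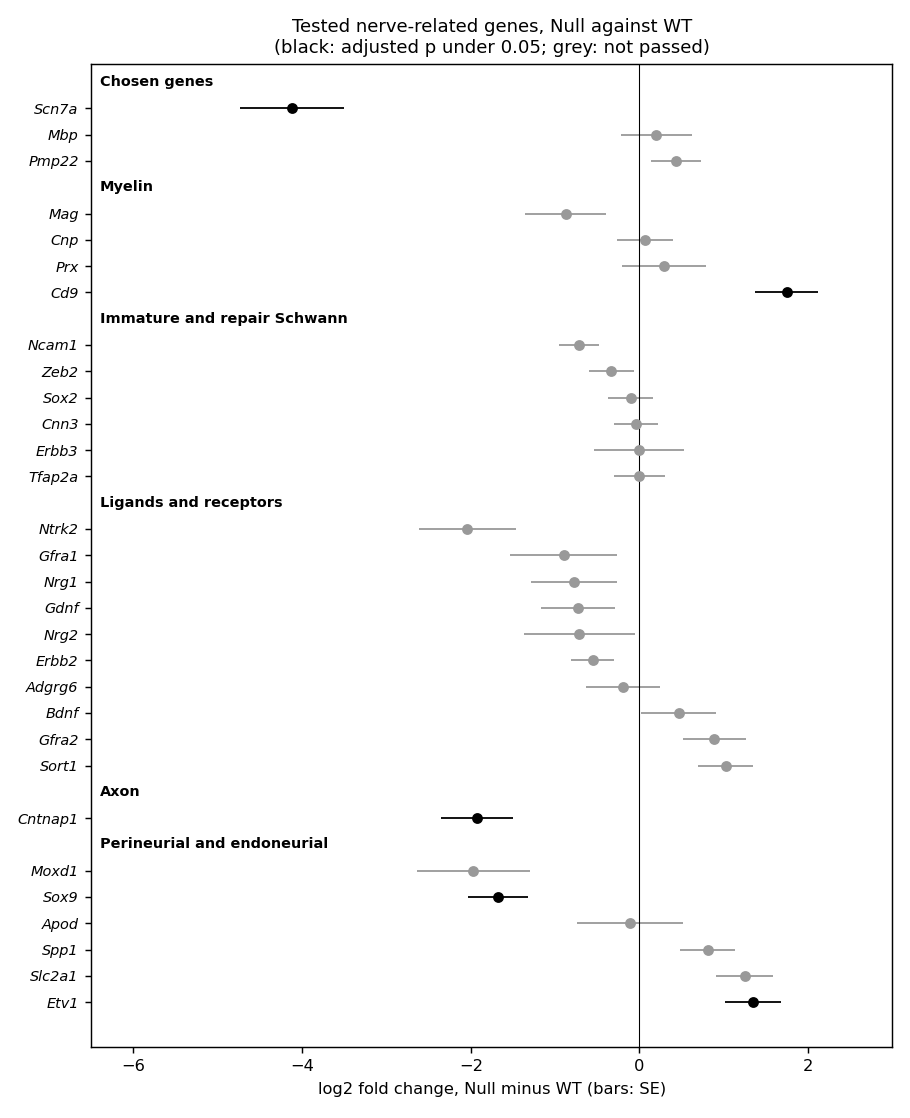
Log2 fold change, Null minus WT, with its SE, for tested genes of the set and of lists of nerve-related genes (x axis), ordered within each list. Black points passed at an edgeR adjusted p under 0.05 and grey points did not; Scn7a, at -4.12, lies farthest from 0.

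Relatives of Scn7a were checked because reads of similar genes can be shared between copies. Of 13 other sodium channel genes, 2 were tested, and 0 rose or fell. Scn9a, an alpha subunit of sensory neurons, had 1 read over the Null libraries and 0 over the WT libraries, and the skeletal muscle channel Scn4a had 7 reads over the Null libraries and 24 over the WT libraries.

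Markers of other cell types moved with genotype in the same libraries. Of 20 skeletal muscle markers, 19 were tested, 17 fell and 0 rose, with a median log2 fold change of -3.32. Their summed level ran from 63.9 to 156 CPM in Null libraries and from 695 to 1879 CPM in WT libraries. Of 12 adipocyte markers, 4 were tested, 3 fell and 0 rose, with summed levels of 46.2 to 96.7 CPM in Null libraries and 110 to 284 CPM in WT libraries. Fabp4, which did not pass (edgeR adjusted p = 0.457), gave 25.8 to 84.7 CPM of the Null sums and 50.2 to 96 CPM of the WT sums. The other 8 markers had too few reads for the test, among them Adipoq, with 18 reads over the Null libraries and 16 over the WT libraries. Lars2, a mitochondrial tRNA synthetase that is in none of the cell type lists, took 0.0417% to 0.166% of reads in Null libraries and 0.473% to 1.85% in WT libraries. Whether these reads come from its mRNA was not tested. Whether these measures contribute to the Scn7a difference was not tested.

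Within the WT libraries the order of Scn7a was not that of the muscle markers. Scn7a was 10.2, 6.14 and 20.3 CPM in WT libraries 1 to 3, where the muscle sum was 1879, 983 and 695 CPM. The ratio of Scn7a CPM to the muscle sum, which does not include Scn7a, was 0%, 0.793% and 0.308% in Null libraries 1 to 3, against 0.54%, 0.625% and 2.93% in WT libraries 1 to 3. In this ratio the groups overlapped. It rests on 0, 39 and 1 Scn7a reads in Null libraries 1 to 3 and on 13, 1 and 326 in WT libraries 1 to 3. With 0 or 1 read in Null libraries 1 and 3 and WT library 2, the ratio cannot show whether the groups differ. WT library 3, with the highest Scn7a level, had the lowest muscle and adipocyte sums of the WT libraries.

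The sums of the endothelial, pericyte and smooth muscle, fibroblast, epithelial and melanocyte lists overlapped between the groups. Of 12 endothelial markers all 12 were tested and 0 passed, with sums of 330 to 418 CPM in Null libraries and 270 to 366 CPM in WT libraries. Of 12 pericyte and smooth muscle markers, 10 were tested, 3 fell and 0 rose, with sums of 505 to 643 CPM in Null libraries and 599 to 1150 CPM in WT libraries. Des, among those that fell, is also counted in the skeletal muscle list. It gave 12 to 17.9 CPM of the Null sums and 111 to 278 CPM of the WT sums. Of 12 fibroblast markers all 12 were tested, 2 rose and 2 fell, with sums of 13194 to 15646 CPM in Null libraries and 7246 to 13365 CPM in WT libraries. Of 12 basal keratinocyte and epithelial markers, 8 were tested, 2 fell and 0 rose, with sums of 176 to 249 CPM in Null libraries and 214 to 352 CPM in WT libraries. Melanocytes also carry Sox10, and of 10 melanocyte markers, 2 were tested, 0 passed and 4 had no read in any library, with sums of 76.4 to 99.4 CPM in Null libraries and 54.7 to 92.2 CPM in WT libraries. Most of each sum came from the 2 tested genes. Mitf gave 40.1 to 49.7 CPM in Null libraries and 24.6 to 31 CPM in WT libraries. Kit gave 30.4 to 56.9 CPM in Null libraries and 21.9 to 49.1 CPM in WT libraries.

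**Figure D3:**
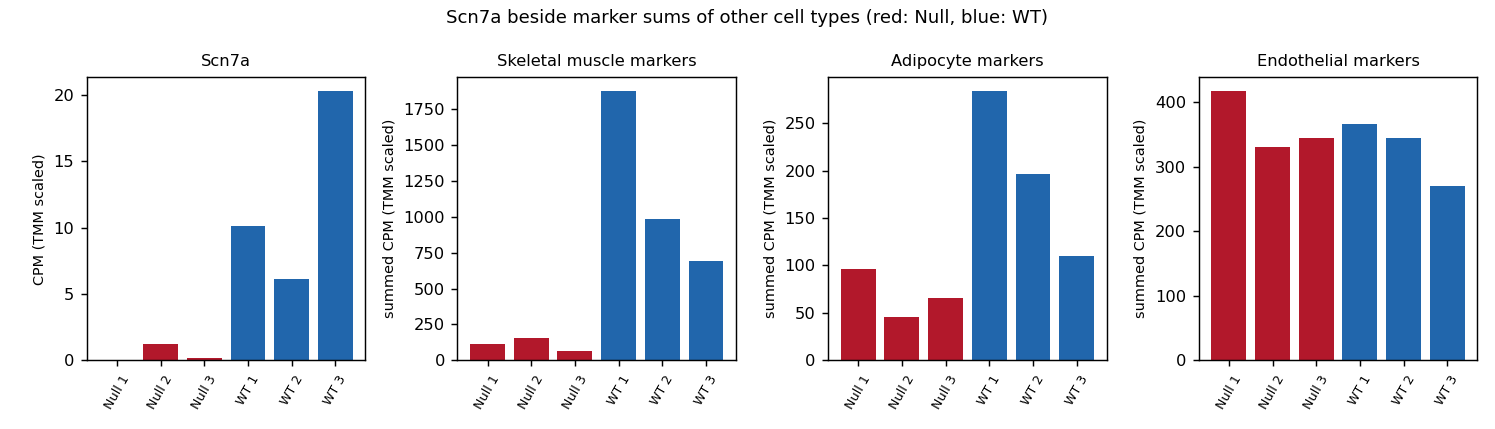
CPM of Scn7a and summed CPM of the skeletal muscle, adipocyte and endothelial markers (y axes from 0) in the 3 Null libraries (red) and the 3 WT libraries (blue). Scn7a, muscle and adipocyte levels are lower in every Null library than in any WT library, Scn7a peaks in WT library 3 where the muscle and adipocyte sums are the lowest of the WT libraries, and the endothelial sums overlap.

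The genes whose pattern lay closest to that of Scn7a were found over all genes tested, as the smallest root mean square difference in log2 CPM (prior count 3), each gene centred on its own mean, over the 6 libraries. Among the nearest were Duox1 (difference 0.43 log2 units), an enzyme that makes hydrogen peroxide, Podn (0.43), a small leucine-rich proteoglycan, Tnnt2 (0.51), cardiac troponin T that is also made in embryonic muscle, and Gpr153 (0.59), an orphan receptor. Of these, Podn stood at 0.921, 6.78 and 2.36 CPM in Null libraries 1 to 3, against 51.5, 43 and 52.2 CPM in WT libraries 1 to 3. It had its highest Null value in Null library 2 and its highest WT value in WT library 3, as Scn7a did. Mbp lay 2.27 log2 units from Scn7a, and Pmp22 lay farther. Genes with 0 reads in a library share 1 value there, set by the prior count. Because Duox1, Podn, Tnnt2 and Gpr153 were chosen for a likeness to Scn7a over the same 6 libraries, their lower level in Null tumours comes from the choice and is given as a description. Their log2 fold changes lay between -4.31 and -2.98.

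**Figure D4:**
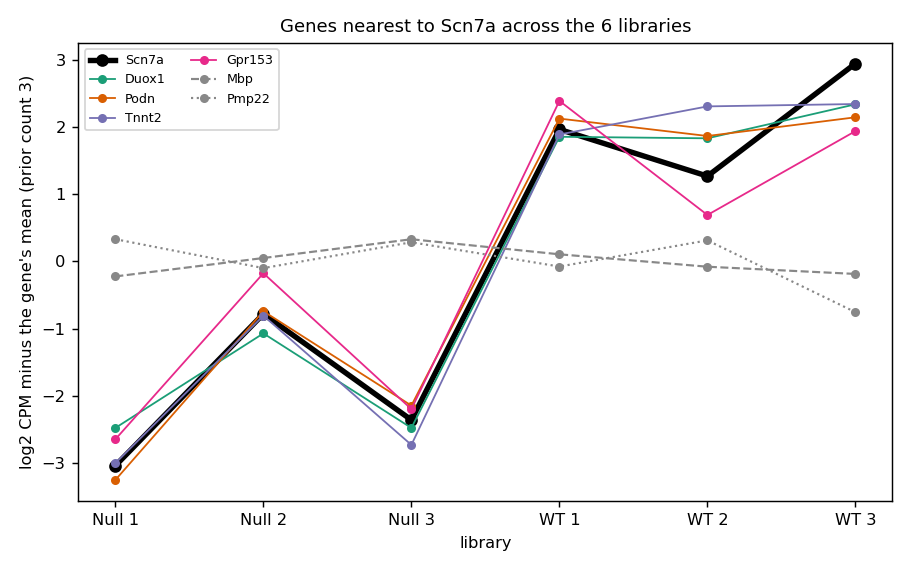
Log2 CPM with prior count 3, minus the mean of each gene over the 6 libraries (y axis), for Scn7a (black), 4 of the genes with the closest pattern (colours) and Mbp and Pmp22 (grey), by library (x axis). Scn7a and the 4 genes lie below 0 in the 3 Null libraries and above 0 in the 3 WT libraries, and Mbp and Pmp22 stay within 1 log2 unit of 0.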

How the data were processed

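The deposited values are whole-number counts of reads per Ensembl gene, 1 table per library, left unnormalized by the authors. Per the submitters' processing notes TopHat2, Cuffdiff, DESeq2 and mm9 were named, without roles or versions. Counting program, annotation and strand setting: not given in the sources used here. Of all listed reads 32.9% to 40% had several alignments, 4.63% to 12% lay in no gene and 1.72% to 2.11% were ambiguous. These reads were left out, which can lower genes with close copies. GENCODE M21 (GRCm38, not the build named) gave symbols for 32919 of 37991 identifiers (86.6%) and exon lengths, and in it no exon of the 7 genes overlapped another gene.

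Null and WT were compared in R 4.3.3 with edgeR 4.0.16 (quasi-likelihood, robust, TMM, default expression filter) and adjusted over all 11887 genes tested. Log2 fold changes are Null minus WT, and the SE is the fold change over the root of F. The fit was tested on simulated data. Alternatives were DESeq2 1.42.0, its size factors in edgeR, other filters, leaving out each library, and 3 treatments of libraries that share a mouse number, 1 of them with limma 3.58.1. Pooled values divide summed reads by summed TMM-scaled totals, with exact Poisson intervals, conditional on the summed reads for ratios. Thinned to 161711 reads, all pairs of libraries differed by more than sampling noise (chi-square per degree of freedom 1.42 to 10.4), so none was treated as a copy. WT library 3 differed from WT libraries 1 and 2 by 5.24 and 6.02. The values against WT libraries 1 and 2 were 5.25 and 5.78 for Null library 1, 2.44 and 2.87 for Null library 2, and 3.28 and 3.59 for Null library 3. WT library 3 also had the largest shares of reads in no gene (12%) and with several alignments (40%). Members and lists were chosen with earlier results of these data known. Genes named are all 7, from each nerve-related and sodium channel list up to 4 passing genes with the largest change and the tested gene with the highest CPM that did not pass, and the 5 with the pattern nearest to Scn7a. Genes named beyond this were chosen after their values were seen, and other cell types are otherwise given as counts. Some genes that this rule takes are not reported here, and list counts include them.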

Additional observations from a re-analysis of the deposited data

How the results depend on the processing

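Scn7a stayed lower and past the threshold in each of the 12 alternative fits that tested it (log2 fold change -6.35 to -3.51, adjusted p 7.51e-05 to 0.0227). These include the fit without WT library 3 and with no filter, added after the data were seen. Scn7a was not tested without WT library 3 under the default filter or with at least 10 CPM in 3 libraries. Without WT library 3, the added fit gave Cntnap1 an edgeR adjusted p of 0.0218, against 0.0992 with the default filter. Etv1 had 0.0119 against 0.12, Spp1 0.0198 against 0.226 and Erbb2 0.369 against 0.235. Mbp (0.07 to 0.31, 10 fits) and Pmp22 (0.11 to 0.70, 14 fits) stayed higher and did not pass in any. The count of changed genes was 688 and ran from 179 to 855 with 1 library left out (59 to 421 higher in Null, against 269, and 120 to 434 lower, against 419). It was 179 without Null library 1, 225 without Null library 3 and 281 without WT library 3. Genes higher in Null numbered 165 with the WT pair that shares a mouse number summed and 533 when limma-voom took mouse number as a random effect. Cnp turned to -0.22 without Null library 2, -0.07 without Null library 3 and -0.059 with both pairs summed, and without single libraries it spanned -0.22 to 0.31. Cnn3 turned to 0.045 without WT library 1, 0.027 without WT library 2, 0.015 with both pairs summed, 0.0039 with the WT pair summed and 0.030 with the random effect, and spanned -0.18 to 0.045 without single libraries. The cause of these shifts was not tested. Over the 18 genes followed, 212 values kept direction and side of the threshold, 19 lost the call, 1 gained it and 8 turned. No paired analysis was possible because the labels give the libraries no numbers shared between the groups. The depth of WT library 2 leaves genes below 18.4 CPM at under 3 reads there, which covers every gene of the set but Pmp22.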
